A study of Homo sapiens with 27 samples.

Results

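The genes described here were the protein-coding zinc finger genes of human chromosome 19 whose symbol is ZNF followed by a number. They were chosen by symbol, protein-coding biotype, chromosome and being listed in all 6 gene tables deposited for the study. This gave 191 members, of 248 such genes listed in at least 1 table. The 6 tables together listed 32719 genes, of which 17536 stood in every table and 13470 of those were protein-coding. The study asked which genes depend on TLE3, a Groucho-family transcriptional corepressor, and on FOXA1, a forkhead pioneer factor of luminal breast cells. T47D, SKBR3 and MDA-MB-453, all established breast cancer cell lines, received an siRNA pool against TLE3 (siTLE3), a pool against FOXA1 (siFOXA1) or a non-silencing siRNA (siNS), and total RNA was sequenced 48 h after transfection. Each of the 9 combinations of line and siRNA had 3 libraries, 27 in all, and both silenced groups of a line were set against the same 3 siNS libraries.

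Zinc finger genes of this kind arose by repeated tandem duplication and lie in clusters along chromosome 19. Many of their proteins carry a KRAB domain in front of an array of DNA-binding C2H2 fingers. The KRAB domain recruits the corepressor TRIM28, which in turn brings the histone methyltransferase SETDB1 and heterochromatin protein 1, and many KRAB zinc finger proteins silence transposable elements in this way. The rule for membership used the gene symbol and not the domain, so members without a KRAB domain, such as ZNF146 and ZNF444, were included.

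Libraries held between 15968223 and 26208135 counted reads. Silencing reached its targets in each line: TLE3 fell by 1.81 (T47D), 1.76 (SKBR3) and 2.31 (MDA-MB-453) on the log2 scale with siTLE3, and FOXA1 fell by 2.18, 2.24 and 2.48 with siFOXA1. FOXA1 rose by 0.54 with siTLE3 in T47D, and TLE3 fell by 0.79 with siFOXA1 in MDA-MB-453. The epithelial markers EPCAM, KRT8, KRT18 and KRT19 were transcribed in every control group, at 318 CPM (KRT18 in MDA-MB-453) or more, whereas CDH1 was at 0.445 CPM in SKBR3. Of markers of other cell types, the leukocyte genes PTPRC and CD3E, the endothelial genes PECAM1 and CDH5 and the fibroblast genes PDGFRB and DCN were not listed in all 6 tables, and the leukocyte gene CD14 was at 1.24 CPM or less in every group. The endothelial gene VWF was at 4.34 CPM in SKBR3 controls and at 0.843 CPM or less in those of the other lines. The collagen gene COL1A1, a fibroblast marker, was at 116, 27.04 and 164 CPM in T47D, SKBR3 and MDA-MB-453 controls, whereas COL1A2 was at 1.15 CPM or less there. COL1A1 fell with both siRNAs in T47D and MDA-MB-453, by 0.51 (MDA-MB-453 siTLE3) to 1.57 (MDA-MB-453 siFOXA1) on the log2 scale, and the part of such cells in the results was not tested. In SKBR3, siTLE3 library 1 and siNS library 3 stood apart from their groups, with an SD of the log2 ratio to the other libraries of the group of 0.468 and 0.560 over 9379 and 9376 genes, against 0.146 to 0.339 in the other 25 libraries. The SKBR3 numbers of called members are therefore also given without them. Ratios to the group followed GC content in all 6 siNS and siTLE3 libraries of SKBR3, not in these 2 alone, with Spearman's rho across genes of -0.784 and 0.586 in these and between -0.590 and 0.736 in the other 4, against -0.408 to 0.322 in the remaining 21 libraries. Sums, medians, levels and the fold changes of single genes use all libraries.

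Levels are CPM, read counts divided by library size and set to a common total, with TMM factors over all 27 libraries. In control cells the members were transcribed at low levels. The median member was at 7.52 CPM in T47D, 4.68 CPM in SKBR3 and 8.71 CPM in MDA-MB-453 siNS libraries, and 178, 153 and 181 of the 191 members reached a mean of 1 CPM. Per kilobase of gene length and averaged over the 9 groups, the median member was at 2.36 CPM per kb, against 8.37 CPM per kb for the 13470 protein-coding genes. The 10 members with the highest level per kilobase were ZNF787 (31.5 CPM per kb), ZNF146 (29.3), ZNF580 (21.3), ZNF296 (19.7), ZNF552 (16.4), ZNF581 (11.98), ZNF121 (10.9), ZNF317 (10.2), ZNF414 (10.03) and ZNF524 (9.53). ZNF146, also called OZF, consists almost entirely of zinc fingers.

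Over the control libraries the mean level was highest in MDA-MB-453 for 100 members, in T47D for 49 and in SKBR3 for 42, and it was lowest in SKBR3 for 110. A gene was called when its Benjamini-Hochberg adjusted p, over all genes tested in the comparison by edgeR's quasi-likelihood test, was under 0.05. Between T47D and SKBR3 controls, 88 of 188 tested members were higher in T47D and 32 lower, against 33.8% and 32.0% of the 14293 genes tested. Of 705 other protein-coding genes of chromosome 19, 179 were higher and 271 lower in T47D (median log2 difference -0.24), and of 223 ZNF genes of other chromosomes 82 and 62 (median 0.07). Against MDA-MB-453, T47D had 33 members higher and 90 lower of 190, where 38.0% of all genes tested were higher and 37.7% lower. The members' share lower, 47.4%, was under that of other chromosome 19 genes, of which 138 were higher and 410 lower (57.7% of 710), and near that of ZNF genes elsewhere, of which 54 were higher and 106 lower (46.9% of 226). SKBR3 had 23 members higher and 102 lower than MDA-MB-453 of 189, against 32.8% and 32.5% of all genes. ZNF genes elsewhere had 36 higher and 108 lower of 225, with a median of -0.50, and other chromosome 19 genes 26.4% higher and 35.9% lower of 700, with a median of -0.13. The median log2 difference of the members was -0.77 in that comparison and -0.02 over all genes tested, and it was 0.45 against 0.01 for T47D over SKBR3. With library totals in place of TMM factors, 10 members were higher in SKBR3 and 119 lower, against 25.9% and 39.7% of all genes, whose median moved to -0.26. With MDA-MB-453 siNS library 1 or 2 left out, the members higher in SKBR3 numbered 15 and 13, against 28.6% and 28.4% of all genes. Without SKBR3 siNS library 3, T47D had 92 members higher and 46 lower than SKBR3, against 39.3% and 37.9% of all genes, and SKBR3 had 32 higher and 105 lower than MDA-MB-453, against 36.2% and 36.9%. The labels name no batch, so lines and any batches that held a single line cannot be told apart.

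Some members that follow each other in the order of members along the chromosome were close to silent in SKBR3. In its control libraries 38 members lay under 1 CPM, against 13 in T47D and 10 in MDA-MB-453, and 26 did so in SKBR3 alone. Members had to be listed in all 6 tables, so genes not listed for a line do not enter these counts. The SKBR3 tables listed 210 and 211 chromosome 19 ZNF genes, against 242 and 243 for T47D and 220 and 221 for MDA-MB-453. They also listed fewer genes of any kind, 23009 and 23333, against 25452 and 27421 for T47D and 23906 and 24497 for MDA-MB-453. Genes under 1 CPM outside the family were not counted, so these numbers are not shown to be particular to the members. Among the members, ZNF430, ZNF708, ZNF91, ZNF675 and ZNF681 follow each other between 21203426 and 23941693 on chromosome 19 (hg19). All 5 were under 1 CPM in SKBR3 controls. ZNF708 ends at 21512227 and ZNF91 starts at 23487793, so these 2 lie more than 1 Mb apart. Genes that are not members were not counted in such runs. ZNF675, known as a TRAF6-inhibitory zinc finger protein, was at 26, 24.9 and 22.5 CPM in T47D controls, 53.7, 49.9 and 48.1 CPM in MDA-MB-453 and 0.0534, 0 and 0 CPM in SKBR3. The SKBR3 controls held 1 read of ZNF675, against 1533 in T47D, a ratio of 1604 after scaling with an exact 95% counting interval of 287 to 63390. ZNF430 had 1 read in SKBR3 and 593 in T47D, a ratio of 620.4 (interval 111 to 24546). ZNF681 had 2 reads against 787, a ratio of 412 (interval 114 to 3405). These intervals cover counting error only. ZNF91, which represses SVA retrotransposons, was at 47.9, 53.5 and 48.8 CPM in T47D, 65.6, 61.6 and 61.2 CPM in MDA-MB-453 and 0.267, 0.479 and 0.109 CPM in SKBR3. The SKBR3 libraries did not overlap those of either other line. ZNF708, from the same run, was at 26, 21.9 and 21.8 CPM in MDA-MB-453 and 0.0534, 0.160 and 0 CPM in SKBR3.

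Other members were near silent in MDA-MB-453 or T47D. ZNF844 had 0 reads in the 3 MDA-MB-453 controls. It was at 18.6, 18.3 and 18.2 CPM in T47D, at least 391-fold higher, and at 3.69, 3.30 and 3.31 CPM in SKBR3, at least 62.2-fold higher, with a floor of 3 reads over the group. ZNF486 was at 0.165, 0.276 and 0.0519 CPM in MDA-MB-453 against 9.20, 9.01 and 7.88 CPM in T47D and 9.08, 9.04 and 9.67 CPM in SKBR3. ZNF347, which overlaps ZNF415 on the same strand, was at 0.372, 0.0922 and 0 CPM in MDA-MB-453 against 10.6, 9.21 and 11.04 CPM in T47D. In the other direction, ZNF443 was at 0.243, 0.151 and 0.0890 CPM in T47D and 8.89, 7.51 and 7.17 CPM in MDA-MB-453, and the libraries of these lines did not overlap, but 37.7% of its 50-base stretches occur in transcripts of another gene, most often ZNF799, so its counts are uncertain. ZNF404 was at 0.0974, 0.0503 and 0.0445 CPM in T47D and 2.36, 2.81 and 2.29 CPM in MDA-MB-453. ZNF114 was at 0.925, 0.855 and 1.02 CPM in T47D and 7.90, 7.69 and 8.83 CPM in MDA-MB-453, a log2 difference of -3.13 (SE 0.21, adjusted p = 9.83e-09). Among genes higher in SKBR3 than in T47D, the imprinted gene ZNF331 differed by -3.12 (SE 0.17, adjusted p = 1.95e-06), ZNF296 by -2.58 and ZNF579 by -1.69. ZNF134 was higher in SKBR3 than in MDA-MB-453, by 2.19 (SE 0.24, adjusted p = 3.95e-05). Of the 191 members, 146 were at or above 1 CPM in all 3 lines, and ZNF564, ZNF154 and ZNF8 were under 1 CPM in each of them. Of the 50-base stretches of ZNF564, 67.0% occur in another gene.

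**Figure D1:**
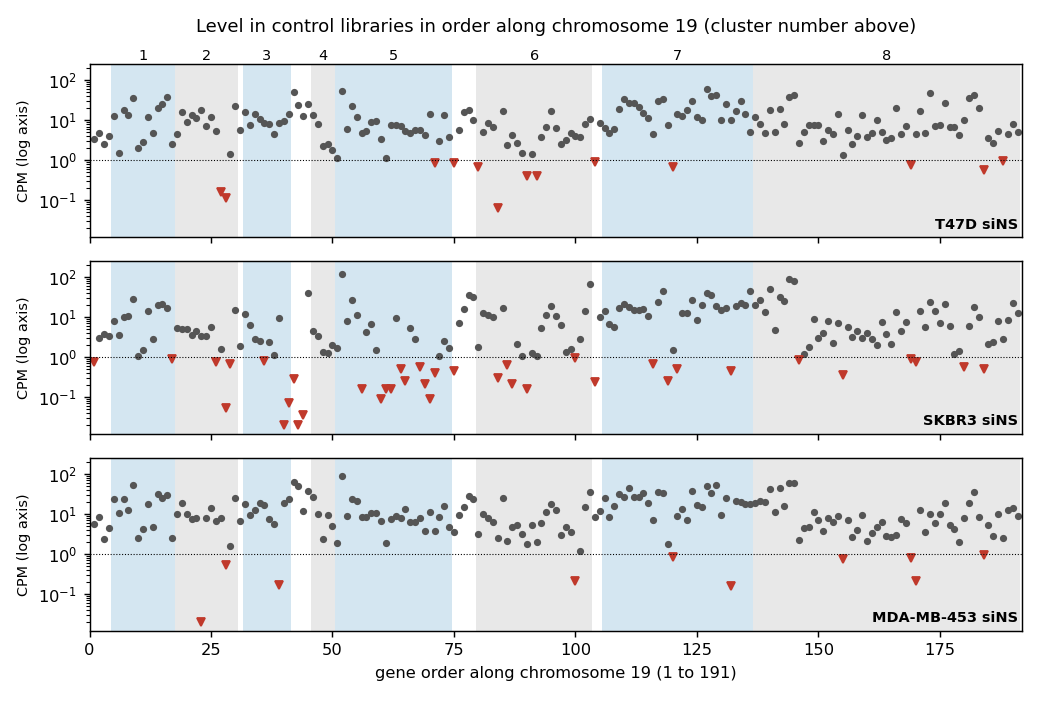
Mean level of each of the 191 members in the 3 control libraries of each line, in CPM on a log axis, ordered by position along chromosome 19, with clusters shaded and numbered; red triangles mark members under 1 CPM, and levels too low for the axis sit at its lowest mark. SKBR3 has 38 red triangles, T47D 13 and MDA-MB-453 10, and in SKBR3 several of them follow each other in clusters 3 and 5 and between clusters 3 and 4.

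With TMM factors the summed level of the family was higher with siTLE3 than with siNS in every library of each line. In T47D the 191 members summed to 2162 ± 18.5 CPM with siNS (mean ± SD, n = 3), 2602 ± 52.4 CPM with siTLE3 and 2369 ± 38.1 CPM with siFOXA1. In SKBR3 the sums were 1965 ± 7.27, 2174 ± 80.4 and 2002 ± 4.06 CPM. MDA-MB-453 gave 2597 ± 4.82, 2716 ± 24.5 and 2690.5 ± 33.5 CPM. With TMM factors all libraries of both silenced groups lay above the 3 controls in each line. The gap was narrow in SKBR3 siFOXA1, where 1998 CPM was the lowest silenced and 1970 CPM the highest control library. In MDA-MB-453 the order rests on the factors, which were 1.09 for siNS library 1 and 1.02 for siTLE3 library 2. Without them siNS library 1 lies above siTLE3 library 2 and above the 3 siFOXA1 libraries. The sums were not tested. SKBR3 siTLE3 library 1, which stood apart, was the highest of its group at 2263 CPM, and libraries 2 and 3 were at 2154 and 2106 CPM.

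**Figure D2:**
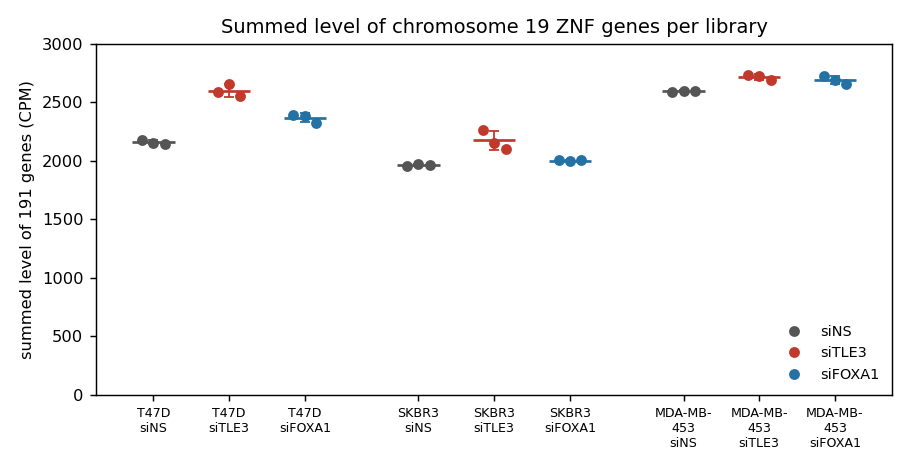
Summed level of the 191 members in each of the 27 libraries, in CPM with TMM factors on an axis from 0, with the mean (line) and SD (bar) of each group of 3. The siTLE3 libraries lie above the siNS libraries of their line, from 2556 to 2659 CPM against 2147 to 2182 CPM in T47D.

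In T47D the family moved mostly upward. With siTLE3, 76 of 188 tested members rose and 16 fell, against 25.3% and 26.6% of the 15821 genes tested. The median member changed by 0.27 on the log2 scale and the median of all genes by 0.01. Other protein-coding genes of chromosome 19 had 165 risen and 242 fallen of 772, with a median of -0.04, and ZNF genes of other chromosomes had 83 risen and 41 fallen of 232, with a median of 0.15. With siFOXA1, 63 of 187 members rose and 23 fell, against 26% and 26.8% of 15553 genes, and the medians were 0.19 for members and 0.00 for all genes. ZNF genes elsewhere had 54 risen and 42 fallen of 231 with siFOXA1, with a median of 0.03. Other chromosome 19 protein-coding genes had 173 risen and 237 fallen of 762, with a median of -0.04. The 5 members that rose most with siTLE3, by the rule for named genes, were ZNF559 (1.71), ZNF426 (1.53), ZNF587B (1.37), ZNF552 (1.31) and ZNF440 (1.27), each as a log2 fold change. Those that fell most were ZNF350 (-0.78), ZNF615 (-0.75), ZNF850 (-0.66), ZNF28 (-0.60) and ZNF428 (-0.60). ZNF224 also rose, from 0.876, 0.101 and 0.267 CPM with siNS, but its mean over the compared libraries was under 1 CPM, outside the rule, and it is named after its value was seen.

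ZNF559 was at 2.92, 2.47 and 3.25 CPM with siNS, 8.62, 9.61 and 10.6 CPM with siTLE3 and 8.93, 9.73 and 11.3 CPM with siFOXA1 in T47D. Both silenced groups lay well above the controls and overlapped each other. Its log2 fold change was 1.71 (SE 0.16, adjusted p = 6.54e-07) with siTLE3 and 1.79 (SE 0.16, adjusted p = 8.34e-07) with siFOXA1, but the gene overlaps ZNF177, so reads of the pair may be shared. ZNF552, which overlaps ZNF586 on the other strand, was at 47.1, 46.7 and 50.5 CPM with siNS, 115, 120.2 and 126 CPM with siTLE3 and 63.6, 63.9 and 68.9 CPM with siFOXA1. Here the siTLE3 libraries stood above the siFOXA1 libraries, which stood above the controls, and ZNF552 rose by 1.31 (SE 0.07, adjusted p = 2.36e-09) and 0.45 (SE 0.07, adjusted p = 0.000156). ZNF440 was at 13.2, 15.2 and 11.8 CPM with siNS, 34.4, 33.8 and 29.7 CPM with siTLE3 and 26.7, 24.03 and 27.1 CPM with siFOXA1, again in 3 separate ranges, and rose by 1.27 (SE 0.10, adjusted p = 2.56e-07) and 0.95 (SE 0.11, adjusted p = 5.44e-06). ZNF28 went the other way, at 62.4, 62.9 and 59.3 CPM with siNS, 42.5, 42.04 and 37.99 CPM with siTLE3 and 41.9, 44.7 and 42.96 CPM with siFOXA1. Its silenced groups overlapped each other below the controls, and it fell by 0.60 with siTLE3 and 0.51 with siFOXA1 (adjusted p = 7.99e-06 and 3.44e-05). With siFOXA1 in T47D the members that rose most were ZNF559, ZNF345 (1.40), ZNF426 (1.35), ZNF569 (1.30) and ZNF17 (1.25). Those that fell most were ZNF850 (-1.17), ZNF444 (-0.80), ZNF230 (-0.78), ZNF430 (-0.73) and ZNF675 (-0.72). The call of ZNF230 was lost without T47D siNS library 4 (adjusted p = 0.0787).

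In MDA-MB-453 fewer members moved with siTLE3. There 28 of 186 rose and 16 fell, against 15.7% and 16.3% of 14575 genes, with a median of 0.08 for members and -0.01 for all genes, and without siTLE3 library 2 the fallen numbered 10, against 11.7% of all genes. ZNF genes elsewhere had 32 risen and 35 fallen of 222 with siTLE3, with a median of 0.03. Other chromosome 19 protein-coding genes had 82 risen and 159 fallen of 695, with a median of -0.07. With siFOXA1, 51 of 187 rose and 20 fell, against 23.4% and 23.7% of 14586 genes, and the medians were 0.14 and -0.01. Leaving out siFOXA1 library 1 gave 32 risen members, 17.1% of those tested, against 18.9% of all genes. Other protein-coding genes of chromosome 19 had 118 risen and 233 fallen of 689 with siFOXA1, and ZNF genes elsewhere 64 risen and 35 fallen of 223. The members that rose most with siTLE3 were ZNF490 (1.09), ZNF426 (1.07), ZNF569 (1.05), ZNF175 (0.89) and ZNF17 (0.88). ZNF233 (-1.11), ZNF222 (-0.81), ZNF358 (-0.64), ZNF615 (-0.63) and ZNF613 (-0.61) fell most, and ZNF229 also fell, from 1.53, 0.875 and 1.09 CPM with siNS and 0.366, 0.252 and 0.402 CPM with siTLE3, but its mean over these libraries was under 1 CPM, outside the rule, and it is named after its value was seen. ZNF222 lost its call without siTLE3 library 2 or 3 or siNS library 1 or 4, with adjusted p between 0.0809 and 0.138. With siFOXA1 the members that rose most were ZNF569 (1.19), ZNF559 (1.18), ZNF256 (1.08), ZNF17 (1.05) and ZNF490 (1.00). The last of these lost its call without siFOXA1 library 3 (adjusted p = 0.0701), and 60.4% of its 50-base stretches occur in transcripts of another gene, so its counts are uncertain. ZNF613 (-1.33), ZNF615 (-1.05), ZNF675 (-1.04), ZNF91 (-1.04) and ZNF841 (-0.91) fell most.

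SKBR3 gave few calls. With siTLE3, 7 of 172 tested members rose and 0 fell, against 3.67% and 1.99% of 14382 genes, while 40 members had an unadjusted p under 0.05 and DESeq2 called 14 risen and 0 fallen. The median member changed by 0.25, against -0.02 for all genes, -0.29 for other protein-coding genes of chromosome 19, whose median transcript GC content was 60.2%, and 0.16 for ZNF genes of other chromosomes, of which 7 rose and 1 fell of 222. Without both libraries that stood apart, siTLE3 library 1 and siNS library 3, 25 members rose and 6 fell, 14.6% and 3.51% of those tested, against 14.6% and 14.1% of all genes. Leaving out a single library gave 0 risen members without siTLE3 library 2 or siNS library 2, 1 without siTLE3 library 3, 2 without siTLE3 library 1 and 3 without siNS library 1 or 3, where between 0.534% and 3.17% of all genes rose. With siFOXA1, 12 of 170 rose and 7 fell, against 10.4% and 8.75% of 14361 genes, with medians of 0.11 for members and 0.00 for all genes. ZNF genes elsewhere had the same median, 0.11, with 20 risen and 7 fallen of 221. Other chromosome 19 protein-coding genes had 43 risen and 59 fallen of 698, with a median of -0.15. Without siNS library 3 the numbers of members risen and fallen were 34 and 23, 19.7% and 13.3% of the members tested, against 22.7% and 22.4% of all genes. Without siFOXA1 library 1, 2 or 3 they were 2 and 3, 5 and 3, and 3 and 4, and without siNS library 2, 5 members rose, where 5.02% to 7.43% of all genes rose and 3.5% to 5.99% fell. Members have a median transcript GC content of 43.0% here, against 48.6% for other protein-coding genes, and across those other genes the log2 fold change was lower at higher GC content with siTLE3 (rho = -0.33) and with siFOXA1 (rho = -0.17). With a GC-dependent offset 14 members rose and 1 fell with siTLE3, 8.14% and 0.581%, against 7.98% and 6.48% of all genes. With siFOXA1 the offset gave 17 risen and 15 fallen members, against 13.3% and 12.6% of all genes. In a fit of all 9 SKBR3 libraries 12.1% of members rose with siTLE3, against 7.66% of all genes. The members that rose most with siFOXA1 were ZNF569, ZNF850, ZNF587B, ZNF844 and ZNF473, at log2 fold changes between 0.80 and 1.54. ZNF613, ZNF175, ZNF350, ZNF225 and ZNF444 fell most, at -1.25 to -0.71. Of these 10 calls, ZNF569, ZNF850, ZNF844, ZNF473, ZNF225 and ZNF444 were lost when at least 1 siFOXA1 library was left out, with adjusted p up to 0.107, and ZNF225 and ZNF844 also without siNS library 2 and ZNF225 without siNS library 1.

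**Figure D3:**
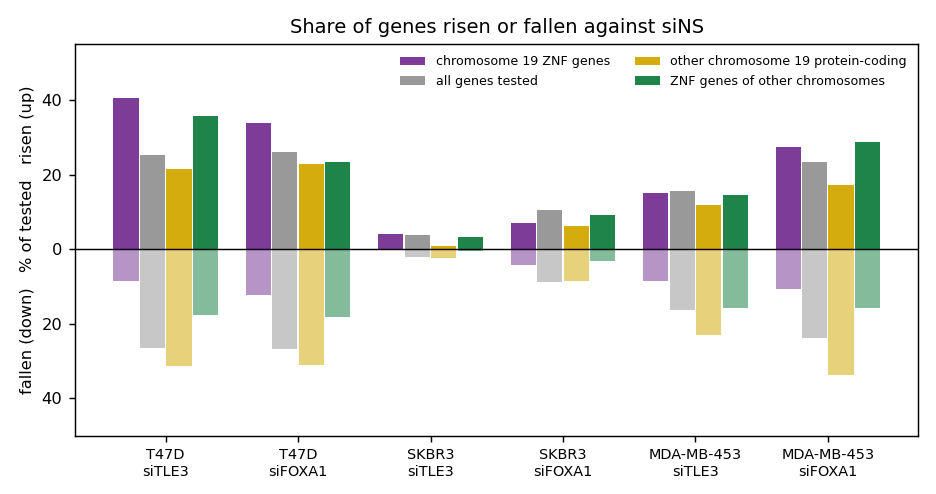
Share of tested genes that rose (bars up, % of tested) or fell (paler bars down) in each comparison with siNS, for the 191 chromosome 19 ZNF genes, all genes tested, other protein-coding genes of chromosome 19 and ZNF genes of other chromosomes. In T47D siTLE3, 40.4% of tested members rose and 8.51% fell, against 25.3% and 26.6% of all genes.

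Since both comparisons of a line use the same siNS libraries, the effects of each siRNA are set across lines. With siTLE3, 4 of 166 members tested in all 3 lines rose in each: ZNF426, ZNF569, ZNF586 and ZNF473. None fell in each. Among the 12446 genes tested in all 3 lines, 2.51% rose and 1.19% fell in each, so the members' share risen was near the background. With siFOXA1, ZNF569, ZNF587B, ZNF586, ZNF146, ZNF780B and ZNF562, 6 of 165, rose in all 3 lines and ZNF613, ZNF444 and ZNF350 fell in all 3, against 4.27% and 3.8% of 12434 genes.

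ZNF569 lies at chr19:37902057-37960177 on the minus strand (hg19) and overlaps ZNF570 on the other strand. In T47D it was at 6.43, 5.89 and 5.16 CPM with siNS, 12.5, 12.6 and 12.7 CPM with siTLE3 and 14.4, 14.1 and 14.3 CPM with siFOXA1. In MDA-MB-453 it was at 7.48, 8.43 and 7.84 CPM with siNS, 14.7, 17.9 and 16.7 CPM with siTLE3 and 18.5, 17.8 and 17.5 CPM with siFOXA1. Its level in SKBR3 was much lower, at 0.641, 0.585 and 0.489 CPM with siNS, 1.90, 1.71 and 1.43 CPM with siTLE3 and 1.53, 1.49 and 1.90 CPM with siFOXA1. In each line all 6 silenced libraries lay above the 3 controls. A lack of overlap with siNS was a condition for naming members in a single comparison. For members named that way, above and below, the separation adds no support to the call. The log2 fold changes with siTLE3 were 1.10 (SE 0.12, adjusted p = 4.19e-06) in T47D, 1.56 (SE 0.35, adjusted p = 0.0372) in SKBR3 and 1.05 (SE 0.12, adjusted p = 1.78e-05) in MDA-MB-453. With siFOXA1 they were 1.30 (SE 0.12, adjusted p = 1.09e-06), 1.54 (SE 0.31, adjusted p = 0.0125) and 1.19 (SE 0.12, adjusted p = 1.10e-07). ZNF586, at chr19:58281023-58331307 on the plus strand (hg19), overlaps ZNF552 and ZNF587B, so its counts are uncertain. It was at 4.72, 5.13 and 4.27 CPM with siNS, 9.28, 10.1 and 7.79 CPM with siTLE3 and 8.72, 7.65 and 8.43 CPM with siFOXA1 in T47D. SKBR3 had 5.13, 5.26 and 7.06 CPM with siNS, 12.1, 11.7 and 12.1 CPM with siTLE3 and 9.68, 8.28 and 9.68 CPM with siFOXA1. In MDA-MB-453 it was at 3.56, 3.41 and 3.69 CPM with siNS, 6.29, 6.50 and 5.83 CPM with siTLE3 and 6.68, 4.74 and 7.03 CPM with siFOXA1. Its silenced libraries too lay above the controls in each line. It rose by 0.94 (SE 0.15, adjusted p = 0.000107), 1.06 (SE 0.19, adjusted p = 0.016) and 0.80 (SE 0.17, adjusted p = 0.00207) with siTLE3 in T47D, SKBR3 and MDA-MB-453, and by 0.81, 0.70 and 0.81 with siFOXA1. In SKBR3 the siTLE3 call of ZNF569 was lost without any 1 of the 6 libraries (adjusted p from 0.0866 to 0.153) and its siFOXA1 call without siFOXA1 library 3 (0.0697). The siTLE3 call of ZNF586 there was lost without siTLE3 library 2 or 3 or siNS library 1 or 2 (0.0544 to 0.0733), and its siFOXA1 call without any siFOXA1 library or siNS library 1 or 2 (0.0618 to 0.104).

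ZNF426 lies at chr19:9638667-9649303 on the minus strand (hg19), overlaps no listed gene, and had the largest rise with siTLE3 in SKBR3 among called members. In T47D it was at 3.99, 5.03 and 5.21 CPM with siNS, 13.5, 15.8 and 12.2 CPM with siTLE3 and 12.3, 12.5 and 11.6 CPM with siFOXA1. In SKBR3 it was at 4.27, 2.82 and 1.36 CPM with siNS, 12.8, 10.4 and 8.60 CPM with siTLE3 and 7.45, 6.92 and 4.86 CPM with siFOXA1. MDA-MB-453 gave 3.84, 5.90 and 4.73 CPM with siNS, 10.1, 12.1 and 8.19 CPM with siTLE3 and 9.24, 7.30 and 7.97 CPM with siFOXA1. Controls were the lowest libraries in every line, and in SKBR3 the siTLE3 libraries also stood above the siFOXA1 libraries. ZNF426 rose with siTLE3 by 1.53 (SE 0.14, adjusted p = 8.08e-07) in T47D, 1.92 (SE 0.37, adjusted p = 0.0218) in SKBR3 and 1.07 (SE 0.18, adjusted p = 0.000557) in MDA-MB-453. With siFOXA1 it rose by 1.35 in T47D and 0.78 in MDA-MB-453, and in SKBR3 its log2 fold change was 1.21 with an adjusted p of 0.0595. ZNF473, also known as ZFP100, is a subunit of the machinery that cuts the ends of replication-dependent histone messages. It was at 9.30, 8.60 and 7.75 CPM with siNS, 15.7, 17.4 and 17.8 CPM with siTLE3 and 14.8, 15.4 and 11.8 CPM with siFOXA1 in T47D, and its silenced libraries lay above the controls there and in the other lines. It rose with siTLE3 by 0.98, 0.75 and 0.67 in T47D, SKBR3 and MDA-MB-453 (adjusted p = 4.29e-06, 0.0435 and 0.000407). ZNF562 was at 19.2, 16.1 and 16.5 CPM with siNS, 38.6, 25.5 and 27.4 CPM with siTLE3 and 24.6, 24.1 and 22.04 CPM with siFOXA1 in SKBR3, with siTLE3 highest and controls lowest. It rose there by 0.84 with siTLE3 and 0.49 with siFOXA1, and in T47D by 0.47 and 0.38. ZNF780B rose by 0.77 in T47D and 0.92 in SKBR3 with siTLE3. Without any 1 of the 6 SKBR3 libraries the siTLE3 calls of ZNF473, ZNF562 and ZNF780B there were lost, with adjusted p from 0.0641 to 0.147, the siFOXA1 call of ZNF780B was lost without any siFOXA1 library or siNS library 1 or 2 (0.0601 to 0.19), and the siTLE3 call of ZNF426 was lost without siTLE3 library 1 or 2 or siNS library 2 (0.0763 to 0.0869).

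ZNF146 and ZNF444 moved with siFOXA1 and in opposite directions. ZNF146 was at 56.1, 58.97 and 51.4 CPM with siNS, 61.2, 59.5 and 56.5 CPM with siTLE3 and 84.5, 88.2 and 92.1 CPM with siFOXA1 in T47D. In SKBR3 the values of ZNF146 were 127, 136 and 103 CPM with siNS, 175, 149 and 142 CPM with siTLE3 and 191, 186 and 179 CPM with siFOXA1. Those in MDA-MB-453 were 82.2, 95.2 and 84.5 CPM with siNS, 105, 108 and 108 CPM with siTLE3 and 140.2, 132 and 138 CPM with siFOXA1. In each line the siFOXA1 libraries were above all others. It rose with siFOXA1 by 0.67 (SE 0.07, adjusted p = 5.22e-06), 0.64 (SE 0.13, adjusted p = 0.0127) and 0.66 (SE 0.07, adjusted p = 2.31e-07), and of its siTLE3 changes the one in MDA-MB-453, of 0.28, passed the test. ZNF444, a SCAN-domain zinc finger protein, was at 39.7, 42.4 and 48.8 CPM with siNS, 41.2, 42.2 and 42.5 CPM with siTLE3 and 24.6, 23.8 and 26.99 CPM with siFOXA1 in T47D. In SKBR3 the values of ZNF444 were 72.1, 68.9 and 104 CPM with siNS, 53.7, 77.5 and 84.1 CPM with siTLE3 and 45.1, 54.3 and 46.1 CPM with siFOXA1. Those in MDA-MB-453 were 57.9, 59.8 and 60.1 CPM with siNS, 58.9, 54.6 and 59.4 CPM with siTLE3 and 38.95, 44.4 and 40.8 CPM with siFOXA1. Its siFOXA1 libraries were below the controls in each line while the siTLE3 libraries overlapped them. It fell with siFOXA1 at log2 fold changes of -0.80 (SE 0.09, adjusted p = 8.65e-06), -0.71 (SE 0.17, adjusted p = 0.0222) and -0.51 (SE 0.08, adjusted p = 1.91e-05). The SKBR3 calls of both genes were lost without any siFOXA1 library, with adjusted p from 0.0598 to 0.101. ZNF587B rose with siFOXA1 by 0.91, 0.88 and 0.77 in T47D, SKBR3 and MDA-MB-453, but 24.1% of its 50-base stretches occur in another gene's transcripts and it overlaps ZNF586, ZNF587 and ZNF814.

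Several of the members that fell were neighbours. ZNF613, ZNF350, ZNF615, ZNF614, ZNF432 and ZNF841 follow each other over 169 kb, at chr19:52430400-52599018 (hg19), and no other member lies among them. This run was picked out after the values were seen. ZNF613 was at 20.4, 22.2 and 16.4 CPM with siNS, 12.8, 14.3 and 15.6 CPM with siTLE3 and 10.7, 13.8 and 12.2 CPM with siFOXA1 in T47D. In SKBR3 the values of ZNF613 were 17.04, 16.9 and 16.8 CPM with siNS, 12.5, 15.5 and 13.2 CPM with siTLE3 and 7.75, 5.61 and 7.44 CPM with siFOXA1. Those in MDA-MB-453 were 30.3, 30.5 and 31.8 CPM with siNS, 19.7, 21.5 and 19.5 CPM with siTLE3 and 11.7, 11.7 and 13.2 CPM with siFOXA1. Every silenced library lay below the controls of its line, and in SKBR3 and MDA-MB-453 the siFOXA1 libraries were the lowest. With siFOXA1 it fell at log2 fold changes of -0.68 (SE 0.13, adjusted p = 0.000573), -1.25 (SE 0.16, adjusted p = 0.00151) and -1.33 (SE 0.10, adjusted p = 2.19e-09). With siTLE3 they were -0.48 (SE 0.12, adjusted p = 0.00347), -0.28 (SE 0.16, adjusted p = 0.318) and -0.61 (SE 0.08, adjusted p = 6.97e-05). ZNF350, also called ZBRK1, is a KRAB repressor that binds BRCA1. It was at 34.4, 33.9 and 35.1 CPM with siNS, 20.1, 20.6 and 20.3 CPM with siTLE3 and 27.8, 30.9 and 30.1 CPM with siFOXA1 in T47D. In SKBR3 the values of ZNF350 were 21.7, 20.3 and 20.4 CPM with siNS, 13.6, 15.3 and 13.9 CPM with siTLE3 and 10.2, 8.91 and 8.76 CPM with siFOXA1. Those in MDA-MB-453 were 30.1, 23.7 and 27.2 CPM with siNS, 19.3, 19.04 and 18.9 CPM with siTLE3 and 16.9, 17.8 and 19.9 CPM with siFOXA1. Its controls were highest in each line, with siTLE3 lowest in T47D and siFOXA1 lowest in SKBR3. The log2 fold changes of ZNF350 were -0.78, -0.53 and -0.51 with siTLE3, the SKBR3 value not passing (adjusted p = 0.0781), and -0.22 (SE 0.08, adjusted p = 0.0281), -1.13 (SE 0.12, adjusted p = 0.000958) and -0.56 (SE 0.11, adjusted p = 0.000299) with siFOXA1. The T47D siFOXA1 call of ZNF350 was lost with DESeq2, and without siFOXA1 library 1 or any siNS library (adjusted p from 0.0545 to 0.147).

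ZNF615 was at 26.97, 26.9 and 26.7 CPM with siNS, 15.2, 17.5 and 15.5 CPM with siTLE3 and 20.3, 23.2 and 23 CPM with siFOXA1 in T47D. In MDA-MB-453 it was at 43.3, 46.5 and 45.6 CPM with siNS, 27.8, 30.8 and 29.4 CPM with siTLE3 and 21.1, 22.7 and 21.2 CPM with siFOXA1. The 3 groups formed separate ranges in both lines, with controls highest. It fell by 0.75 and 0.27 in T47D and by 0.63 and 1.05 in MDA-MB-453 with siTLE3 and siFOXA1, and in SKBR3 its values of -0.03 and -0.59 did not pass (adjusted p = 0.934 and 0.0504). ZNF432 fell by 0.46 and 0.45 in T47D and by 0.47 and 0.77 in MDA-MB-453, but it overlaps ZNF841 on the same strand and its counts are uncertain. ZNF841 fell in MDA-MB-453 by 0.31 and 0.91 and had log2 fold changes of 0.12 and 0.09 in T47D that did not pass. ZNF614 fell with siTLE3 in T47D (by 0.35) and with siFOXA1 in MDA-MB-453 (by 0.49). ZNF675, from the run that is near silent in SKBR3, was at 53.7, 49.9 and 48.1 CPM with siNS, 42.4, 39.5 and 41.5 CPM with siTLE3 and 23.5, 26.3 and 23.3 CPM with siFOXA1 in MDA-MB-453, with no overlap between the groups. It fell by 0.30 and 1.04 there with siTLE3 and siFOXA1, and by 0.38 and 0.72 in T47D.

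**Figure D4:**
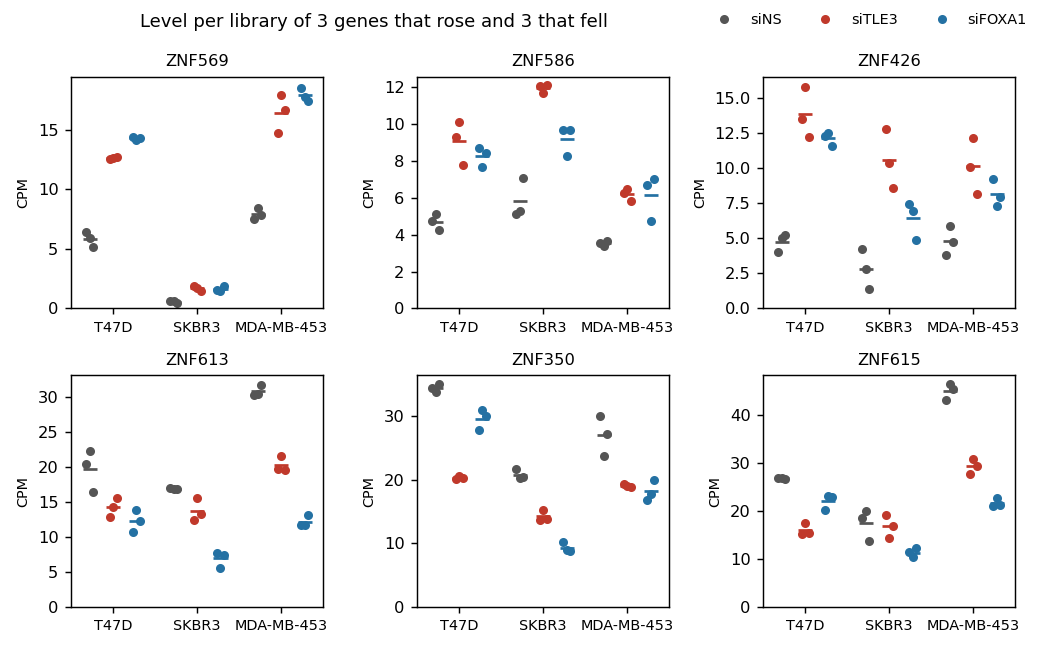
Level in each of the 27 libraries of ZNF569, ZNF586 and ZNF426 (top) and ZNF613, ZNF350 and ZNF615 (bottom), in CPM on axes from 0, grouped by line and coloured by siRNA, with lines at the group means. In the top row the controls are the lowest libraries of each line, and ZNF613 in MDA-MB-453 falls from above 30 CPM with siNS to below 14 CPM with siFOXA1.

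Start-site sequences were read for 171 of the members from RefSeq (GRCh38.p14), as 213 windows of 250 bases before to 50 bases after a start, beside 35116 windows of all genes. Motifs were searched as exact letters on both strands. The ETS letters CCGGAAG were in 38.5% of members' windows, 27.1% of the 340 windows of ZNF genes on other chromosomes, 13.0% of windows of other chromosome 19 genes and 10.3% of all windows. The SP letters GGGCGG were in 60.6%, 56.2%, 61.3% and 44.95% of these, in the same order. The YY1 letters AAGATGGC were in 6.57%, 2.35%, 4.22% and 2.89%. The NRF1 letters GCATGCGC were in 5.16%, 6.76%, 4.84% and 3.05%, and the CRE letters TGACGTCA in 3.76%, 3.24%, 2.80% and 1.85%. The TATA letters TATAAA were in 2.82%, 5.59%, 7.39% and 11.5%, and the forkhead letters TGTTTAC in 0.939%, 1.76%, 1.37% and 3.42%. In 4 members' windows matches of different motifs shared bases. The median ratio of observed to expected CpG was 0.780 in members' windows, 0.799 in those of ZNF genes elsewhere, 0.659 in those of other chromosome 19 genes and 0.579 in all windows. The 8 members with a CRE match were ZNF121, ZNF266, ZNF426, ZNF460, ZNF543, ZNF547, ZNF561 and ZNF562, of which 7 rose and 0 fell with siTLE3 in T47D and 6 and 0 with siFOXA1. Of 160 tested members with a window and no CRE match, 60 rose and 15 fell with siTLE3 and 51 and 22 with siFOXA1. In MDA-MB-453, 3 and 5 of the 8 rose and 0 fell, against 21 risen and 15 fallen of 158 without a match with siTLE3 and 44 and 19 of 159 with siFOXA1. In SKBR3, 2 and 1 of 7 tested rose, against 4 of 149 and 10 of 147 without a match. The 14 members with a YY1 match were ZNF121, ZNF226, ZNF383, ZNF432, ZNF561, ZNF562, ZNF573, ZNF582, ZNF585B, ZNF613, ZNF614, ZNF615, ZNF675 and ZNF784. In T47D 4 of them rose and 5 fell with siTLE3, against 63 and 10 of 154 without a match, and 6 rose and 5 fell with siFOXA1, against 51 and 17. In MDA-MB-453, 1 rose and 5 fell with siTLE3, against 23 and 10 of 152, and 4 rose and 6 fell with siFOXA1, against 45 and 13 of 153. In SKBR3, 1 of 12 tested rose and 0 fell with siTLE3, against 5 and 0 of 144, and 1 rose and 2 fell with siFOXA1, against 10 and 5 of 142. ZNF121, ZNF561 and ZNF562 held both matches, and 5 of the 8 members with a CRE match lie in the cluster from ZNF557 to ZNF846, described below with its own counts. The 80 members with an ETS match had 29 risen and 8 fallen with siTLE3 in T47D, against 38 and 7 of 88 without one, and those with an SP match 48 and 7 of 113, against 19 and 8 of 55. Of 11 with an NRF1 match 2 rose and 0 fell there, against 65 and 15 of 157 without one. Of 6 with a TATA match 1 rose and 2 fell there, against 66 and 13 of 162 without one. With siTLE3 in MDA-MB-453, 0 of these 6 rose and 4 fell, against 24 and 11 of 160 without a TATA match. Over all genes tested, 25.3% rose and 26.6% fell with siTLE3 in T47D, and 15.7% and 16.3% in MDA-MB-453. The 2 members with a forkhead match, letters of the family of FOXA1, were called in none of the siFOXA1 comparisons. CRE and YY1 were described more fully after the numbers for all 7 motifs were seen. Of the genes that rose with siTLE3 in all 3 lines, ZNF569, ZNF586 and ZNF473 are not among the members with a CRE match. In the run around ZNF613, ZNF350 and ZNF841 are not among those with a YY1 match. The windows below were chosen after the values were seen, to show the starts of rising and falling genes named above. Capitals mark the CRE match in the first 3, the ETS match in ZNF586 and the YY1 matches in the last 3. The window of ZNF562, which rose, also holds the YY1 letters, left in lower case. A match describes letters in the window and shows no binding.
ZNF426: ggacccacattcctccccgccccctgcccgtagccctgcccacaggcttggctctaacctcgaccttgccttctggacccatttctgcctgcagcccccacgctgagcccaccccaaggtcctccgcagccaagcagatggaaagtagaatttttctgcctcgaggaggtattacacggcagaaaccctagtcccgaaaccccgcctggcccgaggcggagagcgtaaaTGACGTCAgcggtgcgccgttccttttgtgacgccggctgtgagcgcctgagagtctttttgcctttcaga
ZNF562: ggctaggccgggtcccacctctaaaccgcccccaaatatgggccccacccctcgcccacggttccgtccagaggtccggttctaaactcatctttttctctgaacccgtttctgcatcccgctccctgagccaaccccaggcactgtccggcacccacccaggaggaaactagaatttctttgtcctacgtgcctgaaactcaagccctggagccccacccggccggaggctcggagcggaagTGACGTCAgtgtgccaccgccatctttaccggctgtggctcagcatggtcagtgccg
ZNF266: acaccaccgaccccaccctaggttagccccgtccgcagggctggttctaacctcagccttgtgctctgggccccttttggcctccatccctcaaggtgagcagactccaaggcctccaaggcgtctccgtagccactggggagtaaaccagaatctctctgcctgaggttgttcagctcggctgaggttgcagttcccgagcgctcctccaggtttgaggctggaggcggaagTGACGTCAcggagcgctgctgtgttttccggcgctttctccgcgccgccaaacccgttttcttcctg
ZNF586: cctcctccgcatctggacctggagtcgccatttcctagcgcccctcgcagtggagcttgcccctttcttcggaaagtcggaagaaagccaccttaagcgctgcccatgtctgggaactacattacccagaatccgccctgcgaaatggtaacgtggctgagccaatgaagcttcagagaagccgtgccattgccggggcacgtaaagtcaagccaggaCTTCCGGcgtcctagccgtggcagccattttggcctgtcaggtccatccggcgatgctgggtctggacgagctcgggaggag
ZNF613: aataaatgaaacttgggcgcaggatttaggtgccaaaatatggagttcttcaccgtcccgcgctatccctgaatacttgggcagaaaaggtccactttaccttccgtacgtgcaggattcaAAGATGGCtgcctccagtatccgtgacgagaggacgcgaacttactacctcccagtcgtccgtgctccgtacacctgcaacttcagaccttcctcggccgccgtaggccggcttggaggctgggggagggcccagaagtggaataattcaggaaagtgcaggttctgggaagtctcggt
ZNF615: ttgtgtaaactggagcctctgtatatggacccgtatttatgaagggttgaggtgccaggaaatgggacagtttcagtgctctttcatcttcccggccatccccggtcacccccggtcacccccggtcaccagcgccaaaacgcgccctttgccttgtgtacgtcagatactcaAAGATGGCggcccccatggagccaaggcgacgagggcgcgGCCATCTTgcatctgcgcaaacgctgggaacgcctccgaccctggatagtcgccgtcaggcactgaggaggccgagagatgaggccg
ZNF614: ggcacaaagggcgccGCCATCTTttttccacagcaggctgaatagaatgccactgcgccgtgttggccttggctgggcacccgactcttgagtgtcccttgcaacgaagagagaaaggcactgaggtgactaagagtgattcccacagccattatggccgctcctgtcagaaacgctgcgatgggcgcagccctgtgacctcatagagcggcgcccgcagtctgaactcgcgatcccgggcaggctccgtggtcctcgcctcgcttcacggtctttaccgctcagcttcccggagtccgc

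The windows lie at chr19:9538596-9538895 (ZNF426, minus strand), chr19:9675051-9675350 (ZNF562, minus strand), chr19:9435524-9435823 (ZNF266, minus strand), chr19:57769426-57769725 (ZNF586, plus strand), chr19:51927222-51927521 (ZNF613, plus strand), chr19:52008162-52008461 (ZNF615, minus strand) and chr19:52028330-52028629 (ZNF614, minus strand) of GRCh38.p14. In ZNF426, ZNF562 and ZNF266 the CRE match began 21, 7 and 17 bases before the start on the strand of the gene. ZNF266, near ZNF426 on the chromosome, was at 12.4, 11.8 and 11.8 CPM with siNS, 23.3, 24.5 and 24.7 CPM with siTLE3 and 15.1, 17.3 and 16.6 CPM with siFOXA1 in T47D and at 18.6, 18.98 and 16.7 CPM with siNS, 27.6, 29.4 and 27.6 CPM with siTLE3 and 24.1, 25.8 and 22.8 CPM with siFOXA1 in MDA-MB-453. The controls were lowest in both lines and the siTLE3 libraries highest. ZNF266 rose by 1.00 and 0.45 in T47D and by 0.63 and 0.43 in MDA-MB-453. The YY1 matches of ZNF613, ZNF615 and ZNF614 began 129, 77 and 37, and 235 bases before the start.

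Changes varied along the chromosome. Members whose starts lay within 1 Mb of a neighbour formed 8 clusters of at least 5 genes, which held 175 members, and with a distance of 0.5 Mb there were 9 clusters with 170. In T47D siTLE3 the cluster from ZNF628 to ZNF446 at the end of the long arm, with 55 members, had 27 risen and 0 fallen and a median of 0.39. Over all genes tested in T47D siTLE3, 25.3% rose and 26.6% fell. The clusters from ZNF557 to ZNF846 (9 of 13 risen, 1 fallen), ZNF653 to ZNF791 (8 of 11 risen), ZNF101 to ZNF708 (8 of 10 risen, 1 fallen) and ZNF302 to ZNF792 (4 of 5 risen) had medians of 0.47, 0.49, 0.49 and 0.70. By contrast the cluster from ZNF175 to ZNF331, which holds the run around ZNF613, had 6 risen and 10 fallen of 31 and a median of -0.08. ZNF575 to ZNF296 had 2 risen and 1 fallen of 23 and a median of -0.02. The cluster from ZNF565 to ZNF573, of 24 members, had 7 risen and 1 fallen and a median of 0.23. With siFOXA1 in T47D the cluster from ZNF101 to ZNF708 had 1 risen and 4 fallen, and the one at the end of the long arm 22 risen and 2 fallen, and ZNF565 to ZNF573 10 risen and 1 fallen. MDA-MB-453 siFOXA1 had 21 risen and 3 fallen of 54 in that end cluster and 3 risen and 7 fallen of 30 in the ZNF175 cluster, and ZNF565 to ZNF573 had 7 and 2 of 24. With siTLE3 in MDA-MB-453 the end cluster had 7 risen and 2 fallen of 54, with a median of 0.14, the ZNF175 cluster 3 and 6 of 30 and ZNF565 to ZNF573 4 and 0 of 24. The cluster from ZNF557 to ZNF846 had 3 and 2 of 13 there, with a median of 0.07. ZNF653 to ZNF791 had 4 and 0 of 12, ZNF101 to ZNF708 1 and 1 of 9 and ZNF302 to ZNF792 2 and 0 of 5. In MDA-MB-453, 15.7% of all genes tested rose and 16.3% fell with siTLE3, and 23.4% and 23.7% with siFOXA1. In SKBR3 the end cluster had 1 risen and 0 fallen of 54 with siTLE3 and 5 and 1 with siFOXA1, the ZNF175 cluster 0 and 0 of 30 and 0 and 4 of 29, and ZNF565 to ZNF573 1 and 0 of 17 and 3 and 0 of 16. Of all genes tested in SKBR3, 3.67% rose and 1.99% fell with siTLE3, and 10.4% and 8.75% with siFOXA1. Other protein-coding genes within the span of the end cluster had 5 risen and 4 fallen of 16 with siTLE3 in T47D and 2 and 2 of 16 with siFOXA1 in MDA-MB-453. Those within the span from ZNF557 to ZNF846 had 7 and 9 of 33 with siTLE3 in T47D. Between ZNF565 and ZNF573 they had 1 and 0 of 4 with siTLE3 in T47D and 3 and 0 of 3 with siFOXA1 in MDA-MB-453. Between neighbouring members up to 1 Mb apart, Pearson's r of the log2 fold changes ranged from 0.23 (T47D siFOXA1, 168 pairs) to 0.36 (SKBR3 siFOXA1, 145 pairs). These r are across genes of the same libraries and neighbours can share reads: 115 members overlap another listed gene, 73 of them a protein-coding one.

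**Figure D5:**
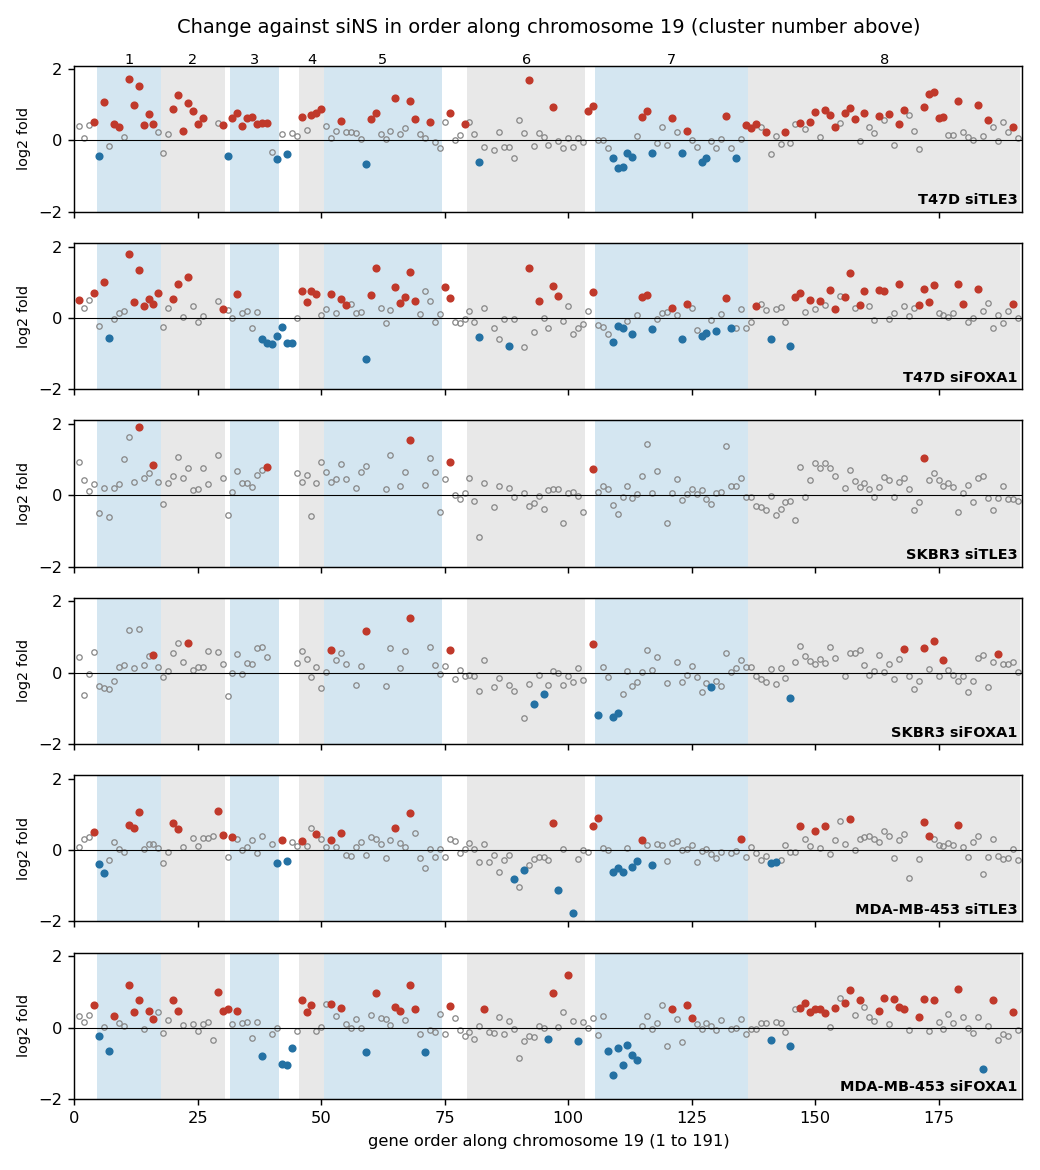
Log2 fold change against siNS of each tested member, in order along chromosome 19, in the 6 comparisons, with clusters shaded and numbered; filled red points rose, filled blue points fell and open points did not pass the test. In cluster 8 of T47D siTLE3, 27 points are red and 0 blue, and the blue points near the start of cluster 7 are the run around ZNF613.

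Direct comparison of the siRNAs avoids the shared controls. In T47D, 42 of 188 members were higher with siTLE3 than with siFOXA1 and 12 lower, against 22.5% and 21.8% of 16053 genes, and the lower numbered 6 without siTLE3 library 4 and 7 without siFOXA1 library 1. SKBR3 had 16 higher and 2 lower of 170, against 10.7% and 9.24% of 14195 genes, and MDA-MB-453 30 higher and 33 lower of 186, against 27% and 26.1% of 14484 genes. In SKBR3 the higher numbered 26 without siTLE3 library 1, 6 without siTLE3 library 2 and 3 or 4 without a siFOXA1 library, where 19.3%, 6.72% and 5.04% to 5.42% of all genes were higher, and the lower numbered 8 without siTLE3 library 1, 1 without siTLE3 library 2 or 3 and 0 without any siFOXA1 library. For the members lower in T47D and SKBR3 the matching shares of all genes are not given. Their shifts are therefore not a result about the members alone. ZNF486 and ZNF90 moved to opposite sides of the control in T47D. ZNF486 was at 9.20, 9.01 and 7.88 CPM with siNS, 11.7, 14.6 and 10.8 CPM with siTLE3 and 5.17, 4.25 and 6.46 CPM with siFOXA1, with siTLE3 above and siFOXA1 below the controls, and differed by 1.23 (SE 0.17, adjusted p = 9.62e-05) on the log2 scale. ZNF90 was at 4.92, 4.28 and 4.63 CPM with siNS, 7.12, 7.24 and 5.09 CPM with siTLE3 and 3.64, 2.88 and 2.60 CPM with siFOXA1 and differed by 1.10 (SE 0.20, adjusted p = 0.000758). ZNF93 differed by 0.96. Lower with siTLE3 were ZNF333 (-0.65), ZNF233 (-0.61) and ZNF345 (-0.60). The call of ZNF345 was lost without siTLE3 library 3 or 4 or any siFOXA1 library (adjusted p from 0.0626 to 0.165) and that of ZNF233 without siTLE3 library 1 or 4 or siFOXA1 library 1 (0.0545 to 0.0977).

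In MDA-MB-453 ZNF91 was at 65.6, 61.6 and 61.2 CPM with siNS, 75.8, 76.7 and 79.9 CPM with siTLE3 and 33.5, 29.9 and 27.5 CPM with siFOXA1. The siTLE3 libraries lay above and the siFOXA1 libraries below the controls, and the direct difference was 1.35 (SE 0.07, adjusted p = 1.46e-13). ZNF90 differed by 1.20 in the same direction. ZNF175, known as OTK18 and for repression of HIV transcription, was at 21.5, 25.6 and 27.2 CPM with siNS, 45.3, 44.8 and 47.5 CPM with siTLE3 and 20.6, 20.2 and 22.6 CPM with siFOXA1. Its siTLE3 libraries stood above the rest, and the direct difference was 1.12 (SE 0.07, adjusted p = 1.78e-11). In SKBR3 ZNF175 was at 16.6, 14.99 and 11.4 CPM with siNS, 14.5, 16.4 and 14.1 CPM with siTLE3 and 6.04, 6.56 and 5.69 CPM with siFOXA1, where siFOXA1 was lowest, and differed by 1.30 (SE 0.14, adjusted p = 0.000306). Higher with siFOXA1 in MDA-MB-453 were ZNF233 (-1.10), ZNF134 (-1.01) and ZNF221 (-0.88). In SKBR3 ZNF792 (1.37) and ZNF555 (1.07) were higher with siTLE3, and ZNF584 (-0.56) and ZNF581 (-0.48) lower. Each of these 4 calls was lost without at least 1 of the 6 libraries (adjusted p from 0.0515 to 0.17).

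Whether an siRNA acted differently between lines was tested with the line-by-siRNA terms. For siTLE3, 14 of 191 members differed between lines, against 12.4% of 15792 genes, and for siFOXA1 31 of 191, against 34.4% of 15684 genes. For siTLE3 the number was 8 or 9 without any T47D siNS library, T47D siTLE3 library 1 or 3 or MDA-MB-453 siTLE3 library 2, where 7.87% to 9% of all genes differed, and 31 without both SKBR3 libraries that stood apart, 16.2% of members against 26.9% of all genes. ZNF552 differed most for siTLE3, with log2 fold changes of 1.31 in T47D, 0.44 in SKBR3 and 0.39 in MDA-MB-453 (adjusted p of the difference = 0.000426). ZNF358 was at 1.27, 1.51 and 1.69 CPM with siNS and 2.91, 3.17 and 3.57 CPM with siTLE3 in T47D, and at 12.2, 9.31 and 9.50 CPM with siNS and 6.65, 5.79 and 7.59 CPM with siTLE3 in MDA-MB-453. It rose in the first line by 1.09 and fell in the second by 0.64 (adjusted p of the difference = 0.00581). ZNF850, which overlaps ZNF567 on the other strand, differed most for siFOXA1. It was at 9.30, 10.2 and 9.48 CPM with siNS and 4.34, 4.69 and 3.86 CPM with siFOXA1 in T47D, 1.23, 1.60 and 1.68 CPM with siNS and 3.64, 3.21 and 3.16 CPM with siFOXA1 in SKBR3 and 9.09, 11.9 and 10.1 CPM with siNS and 5.50, 7.75 and 5.97 CPM with siFOXA1 in MDA-MB-453. The silenced libraries were below the controls in T47D and MDA-MB-453 and above them in SKBR3, with log2 fold changes of -1.17, -0.69 and 1.18 (adjusted p of the difference = 2.71e-06). ZNF226 had siFOXA1 log2 fold changes of -0.00, -0.61 and -0.01 in T47D, SKBR3 and MDA-MB-453, of which only the SKBR3 value passed.

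The 7 members listed as repressors of transposable elements are ZNF91, ZNF93, which represses LINE-1 elements, ZNF417 and ZNF587, closely related genes that act on HERV-K, and ZNF649, ZNF765 and ZNF808. In T47D 2 of 7 rose with siTLE3, ZNF93 (0.66) and ZNF587 (0.66), and with siFOXA1 1 fell, ZNF91 (-0.24), where 25.3% of all genes rose and 26.8% fell, respectively. In MDA-MB-453 ZNF91 (0.30) and ZNF765 (0.30) rose with siTLE3, and ZNF91 (-1.04) and ZNF649 (-0.65) fell with siFOXA1, where 15.7% of all genes rose and 23.7% fell. In SKBR3 1 of 6 tested, ZNF587 (0.36), rose with siFOXA1 and 0 of 6 with siTLE3, where 10.4% and 3.67% of all genes rose. ZNF417, with 37.6% of its 50-base stretches in another gene, and ZNF808 passed in none of the 6 comparisons with siNS. Of 9 genes with other described roles, ZNF536 and ZNF541 were not members. ZNF274, which recruits SETDB1 to the ends of zinc finger genes, passed in none of these 6 either, with log2 fold changes between -0.24 and 0.23. It was higher with siTLE3 than with siFOXA1 in MDA-MB-453, by 0.40 (SE 0.07, adjusted p = 3.60e-05), and differed between the control libraries of each pair of lines. ZNF331 rose with siTLE3 in T47D (0.42) and ZNF580 fell with siTLE3 in MDA-MB-453 (-0.33).

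Of 21 genes of the KRAB corepressor machinery, 3 rose and 13 fell with siTLE3 in T47D, with a median of -0.27, where 25.3% of all genes tested rose and 26.6% fell. Those that fell most were DNMT3B (-0.62), MORC2 (-0.60), SMARCAD1 (-0.53), EHMT1 (-0.51) and CHD4 (-0.51), as log2 fold changes, and TRIM28, at 0.09, did not pass (adjusted p = 0.275). DNMT3B encodes a DNA methyltransferase, EHMT1 a histone methyltransferase and CHD4 a chromatin remodeller. With siFOXA1 4 rose and 9 fell, against 26% and 26.8% of all genes. In MDA-MB-453, 5 rose and 7 fell with siTLE3, against 15.7% and 16.3% of all genes, and 8 rose and 6 fell with siFOXA1, against 23.4% and 23.7%. In SKBR3, 1 rose and 0 fell with siTLE3, against 3.67% and 1.99%, and 5 rose and 1 fell with siFOXA1, against 10.4% and 8.75%. UHRF1, which guides maintenance DNA methylation, rose with siTLE3 by 1.06 in T47D, 1.42 in SKBR3 and 0.78 in MDA-MB-453. It also rose with siFOXA1, by 1.99 in SKBR3 and 0.28 in MDA-MB-453, so its rise was not particular to siTLE3. SETDB1 rose in T47D by 0.23 with siTLE3 and 0.37 with siFOXA1, and the DNA methyltransferase gene DNMT3A fell in MDA-MB-453 by 0.81 and 0.99. Of 15 chromosome 19 zinc finger genes without a ZNF number, 8 were tested in T47D, where 4 rose with siTLE3 (ZSCAN18, ZSCAN1, ZSCAN22 and ZFP28, by 0.53 to 0.59) and 3 with siFOXA1, against 25.3% and 26% of all genes. In MDA-MB-453, 3 of 5 tested rose with siFOXA1: ZFP14 by 0.86, ZFP28 by 0.54 and ZFP30 by 0.28, against 23.4% of all genes, and 0 of 5 passed with siTLE3. In SKBR3, 0 of 7 tested passed with siTLE3 and 1 of 6 rose with siFOXA1.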

How the data were processed

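Total RNA of 27 libraries was sequenced 48 h after siRNA transfection. The values used are whole-number read counts per gene deposited by the authors in 6 tables, with a gene length column in bases. The submitters' processing notes name STAR 2.5, HTSeq 0.6.1, DESeq2 and genome build hg19, and the strand setting of the counting is not given in the sources used here. A further 72 columns of per-sample values were not used. Library numbers follow the deposited column names: T47D siNS has 2, 3 and 4, T47D siTLE3 has 1, 3 and 4, the MDA-MB-453 controls have 1, 2 and 4, and every other group has 1 to 3. The labels call the libraries of a group biological replicates without saying that they came from separate cultures, so p-values measure only the spread between these libraries.

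Each comparison was fitted over all genes of its libraries with edgeR 4.0.16 in R 4.3.3 (TMM scaling, filterByExpr, quasi-likelihood test, Benjamini-Hochberg adjustment, threshold 0.05). The SE is the size of the log2 fold change divided by the square root of F. CPM used TMM factors over the 27 libraries and the genes of all 6 tables. DESeq2 1.42.0, other scalings, no filter, one joint fit per line (9 libraries), a replicate block and leaving out each library were alternatives, and a GC-dependent offset was added after seeing the data. The fitting was tested on simulated counts. The members, gene lists and tests were chosen with earlier results of these data known.

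Genes were named by a fixed rule: per comparison with siNS, the 5 called members per direction with the largest change, a mean of at least 1 CPM and no overlap between the groups, and 3 per direction in the direct and control comparisons. The rule also took the leading members called in all 3 lines, the 5 with the smallest p per line-by-siRNA test, the 10 with the highest level per kilobase, and the gene lists. Coordinates of genes are hg19 as deposited. Start-site windows are RefSeq sequences of GRCh38.p14 and no coordinate was converted. Shared 50-base stretches and GC content came from GENCODE transcripts.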

Additional observations from a re-analysis of the deposited data

Results flagged for a closer look

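For 14 of the 191 members the siTLE3 effect, and for 31 the siFOXA1 effect, differed between the lines in a test of the difference itself (edgeR's quasi-likelihood test of the line-by-siRNA terms, adjusted over all genes tested). These numbers stand against 12.4% and 34.4% of all genes tested. With siTLE3 the adjusted p was 0.000426 for ZNF552, 0.00132 for ZNF587B, 0.00546 for ZNF850, 0.00581 for ZNF358 and 0.00628 for ZNF175. With siFOXA1 it was 2.71e-06 for ZNF850, 0.00022 for ZNF350, 0.000423 for ZNF175, 0.000562 for ZNF91 and 0.00198 for ZNF226. ZNF552, ZNF587B and ZNF850 overlap other genes, so their counts may hold reads of a neighbour. SKBR3 held the 2 libraries that stood apart, and without both the number for siTLE3 was 31, or 16.2% of members against 26.9% of all genes.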

How the results depend on the processing

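Of 121 named results, 96 kept their direction and their side of the threshold under every alternative run, and no result changed direction. The SKBR3 counts moved most. Members risen with siTLE3 in SKBR3 (7) numbered 14 with DESeq2, 14 with the GC offset, 21 in a fit of the 9 libraries and 25 without both libraries that stood apart, where the share of all genes risen moved from 3.67% to 6.46%, 7.98%, 7.66% and 14.6%, and those fallen (0) numbered 1 with the GC offset, 1 with 9 libraries and 6 without both libraries. Members fallen with siFOXA1 in SKBR3 (7) numbered 15 with the GC offset (8.75% of all genes moved to 12.6%), and those higher and lower with siTLE3 than with siFOXA1 (16 and 2) numbered 26 and 6 (17.7% and 17.6% of all genes). SKBR3 controls were higher than MDA-MB-453 controls for 23 members and for 10 with library totals (25.9% of all genes). Members whose siTLE3 effect differed by line (14) numbered 31 without both libraries (26.9% of all genes). The cause of these shifts was not tested.

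With a replicate block, SKBR3 had 30 risen and 6 fallen members with siTLE3, 10 and 5 with siFOXA1 and 13 higher and 2 lower in the direct comparison, and MDA-MB-453 had 28 and 31. With the block 13.3% of all genes rose and 12.4% fell with siTLE3 in SKBR3, against 3.67% and 1.99% without it, and 8.52% and 6.29% did with siFOXA1. No such share is given for the direct comparisons, so their counts with the block are not a result about the members alone. The correlations of same-numbered libraries ranged from -0.327 to 0.763 in SKBR3 siTLE3 and not every library correlated best with its own number, so the numbers were not taken as pairs. The T47D comparisons and those with MDA-MB-453 siNS had no block, because their deposited column numbers do not match the labels.

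Leaving out 1 library at a time gave 64 to 74 risen and 14 to 20 fallen members in T47D siTLE3, 50 to 72 and 19 to 23 in T47D siFOXA1, 0 to 3 and 0 in SKBR3 siTLE3, 2 to 34 and 3 to 23 in SKBR3 siFOXA1, 20 to 28 and 10 to 19 in MDA-MB-453 siTLE3 and 32 to 49 and 14 to 20 in MDA-MB-453 siFOXA1. The direct comparisons gave 30 to 36 higher and 6 to 14 lower in T47D, 3 to 26 and 0 to 8 in SKBR3 and 25 to 28 and 27 to 33 in MDA-MB-453. Between controls the ranges were 76 to 92 and 27 to 46 for T47D over SKBR3, 30 to 32 and 83 to 89 for T47D over MDA-MB-453 and 13 to 32 and 94 to 105 for SKBR3 over MDA-MB-453. Effects by line ranged from 8 to 18 for siTLE3 and from 22 to 45 for siFOXA1. The share of all genes called also moved with the library left out, as given above for SKBR3. These ranges therefore describe how the calls shift and are not a result about the members alone. Members near 1 CPM rest on few reads, and for them a difference may not have been detectable at this depth.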
